A study of Mus musculus with 4 samples.

Results

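The plain Dorsal cluster was a group of 1482 mature olfactory sensory neurons (OSNs) of the mouse main olfactory epithelium. Its members were the cells that the deposited cell table labels Dorsal in the clustering of mature OSNs made after the odorant receptor genes had been removed. They were 1482 of 9539 clustered mature neurons, of 15859 cells retained by the study and of 21809 deposited barcodes. The 4 mice gave 448, 317, 305 and 412 of these neurons, which was 17.1%, 13.8%, 17.8% and 14.1% of their clustered mature neurons (15.7% ± 2.04, SD, n = 4). The cluster is called plain because dorsal neurons rich in Calb2, Cd36, Cd55 or Dlg2 had been placed in clusters of their own, which held 477, 197, 142 and 435 neurons. The main comparison is with the plain Ventral cluster, the counterpart that lies on the other side of the dorsal to ventral split, with 4600 neurons (1186, 1133, 750 and 1531 by mouse).

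These 4 samples came from untreated male C57BL/6 mice (C57BL/6J in the study's methods) aged 8 weeks, with 1 droplet-based library of 3′ ends per mouse, and no other group, genotype or treatment is analysed here. The olfactory epithelium was dissociated with papain and sorted for live nucleated cells before loading. Each mouse is therefore a replicate, and every comparison below is made between groups of cells taken from the same 4 animals and libraries. The libraries held 23157467 to 32382702 UMIs (unique molecular identifiers, each counting a captured transcript). Over all barcodes, 54 sequences occurred in more than 1 library, and among the Dorsal neurons alone 0 did. How many of the 54 were carried by a Dorsal neuron and a cell outside the cluster was not counted.

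The olfactory epithelium is divided into zones along its dorsomedial to ventrolateral axis, and a given odorant receptor is used only by neurons of a certain zone. Each mature OSN transcribes a single odorant receptor gene. Receptors fall into class I genes, which lie together in a cluster on chromosome 7 and are used mostly in the dorsal epithelium, and class II genes, which are spread over many chromosomes and used throughout. Nqo1, a quinone reductase, and Acsm4, an acyl-CoA synthetase, are known markers of dorsal neurons, whereas Ncam2, an adhesion molecule, and the nuclear factor I protein Nfix mark the ventral side. The axon guidance receptors Robo2 and Nrp2 are known to be graded in opposite directions along the same axis, which helps to sort dorsal and ventral axons in the olfactory bulb.

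The promoters of the 2 dorsal markers and of the ventral marker Ncam2 are shown because the levels of these genes set both clusters apart. Each window runs from 250 bases before to 50 bases after the RefSeq start of the gene (build GRCm38.p6), written 5′ to 3′ along the gene. Nqo1 is at chr8:107403156-107403455 on the minus strand, Acsm4 at chr7:119689776-119690075 on the plus strand and Ncam2 at chr16:81200447-81200746 on the plus strand. Capitals mark matches, on either strand, to TTGGCA, the core of the nuclear factor I site, and to CCCNNGGG, the core of the sites of the Ebf factors. No overlap between motifs occurred in these windows, and TGACNNNGC, the antioxidant response element bound by Nrf2, was also searched.
Nqo1: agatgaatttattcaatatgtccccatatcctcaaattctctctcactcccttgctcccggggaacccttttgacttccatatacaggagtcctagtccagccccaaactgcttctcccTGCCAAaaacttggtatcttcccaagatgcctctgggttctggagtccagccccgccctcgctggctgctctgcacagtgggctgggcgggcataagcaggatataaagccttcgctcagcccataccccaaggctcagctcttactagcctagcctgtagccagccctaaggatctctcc
Acsm4: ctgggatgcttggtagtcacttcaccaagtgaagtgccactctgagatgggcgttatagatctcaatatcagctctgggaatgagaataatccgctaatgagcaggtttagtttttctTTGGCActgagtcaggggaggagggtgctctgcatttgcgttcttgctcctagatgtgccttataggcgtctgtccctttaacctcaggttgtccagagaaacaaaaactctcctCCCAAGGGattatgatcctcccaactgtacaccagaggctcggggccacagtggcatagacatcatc
Ncam2: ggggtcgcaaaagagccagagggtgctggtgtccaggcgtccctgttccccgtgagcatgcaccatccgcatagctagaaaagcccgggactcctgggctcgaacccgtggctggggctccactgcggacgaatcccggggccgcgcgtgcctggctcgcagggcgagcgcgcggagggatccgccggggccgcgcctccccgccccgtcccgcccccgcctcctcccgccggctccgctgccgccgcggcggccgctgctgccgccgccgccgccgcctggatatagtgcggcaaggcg

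The Nqo1 window held 1 nuclear factor I match, the Acsm4 window held 1 nuclear factor I and 1 Ebf match, and the Ncam2 window held none of the 3 motifs. Over all 32851 RefSeq promoter windows of that length, 14.1% held the nuclear factor I core, 13.7% the Ebf core and 12.4% the antioxidant response element. Genes at least 2-fold higher in Dorsal than in Ventral neurons (described below) had 52 windows from 42 genes, with the motifs in 9.62%, 21.2% and 19.2%. Genes at least 2-fold lower had 138 windows from 103 genes, with the motifs in 10.1%, 19.6% and 14.5%. A gene can have several windows, so the windows are not independent. These are matches of letters and no measure of binding.

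The markers of the cluster are described first. Per the study's methods, clusters were named dorsal or ventral by their Nqo1 and Nfix levels, so these genes are no check of the label. Levels are given as UMIs per 10000 UMIs, pooled over the cells of a mouse and cluster. Nqo1 stood at 22.6, 31.2, 26.8 and 20.2 in the Dorsal neurons of mice 1 to 4 and at 0.487, 0.437, 0.577 and 0.396 in their Ventral neurons. Every Dorsal value was far above every Ventral value, and the mean ratio was 51.8-fold (log2 ratio 5.69 ± 0.29, SD, n = 4). Ratios between the clusters are means over mice on a log2 scale with 0.01 UMIs per 10000 added to each level, which understates those of low genes. Acsm4 stood at 5.51, 5.02, 5.21 and 4.76 in Dorsal and at 0.218, 0.140, 0.185 and 0.141 in Ventral neurons, a 28.8-fold ratio. Nqo1 had a UMI in 95.5% ± 2.31 of Dorsal and 7.56% of Ventral neurons, and after thinning each cell to 3000 UMIs in 94.1% and 4.54%. Microvillar cells of the cluster Mv2, a non-neuronal type, had an Nqo1 UMI in 2.51%. Acsm4 was seen in 83.8% of Dorsal and 4.72% of Ventral neurons and in 15.0% of Mv2 cells. In the 3643 Ventral neurons whose receptor was of the Ventral type (defined below), Acsm4 was seen in 1.04%, so the Mv2 share was not taken as a measure of free Acsm4 RNA. Median depths were 4616, 4696 and 5081 UMIs per cell in Dorsal, Ventral and Mv2.

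Of the non-neuronal markers listed, few were detected in the cluster above a low level. None of the 3 sustentacular, 3 horizontal basal or 3 immune genes listed reached 0.1 UMIs per 10000, and Neurog1, which marks neuronal precursors, was at 0 in every mouse. Neurod1, another precursor gene, gave 2 UMIs, with 0.00405 and 0.00652 UMIs per 10000 in mice 1 and 4 and 0 in the others. The immature neuron genes Gap43, Gng8 and Stmn4 summed to 5.89 to 7.34 UMIs per 10000 in Dorsal and 5.79 to 6.67 in Ventral neurons. Nearly all of it was Stmn4 (6.28 and 6.17), whereas Gap43 was at 0.145 in both, against 8.75 in immature iOSN2 and 32.3 in iOSN1 cells. The sum of the sustentacular list was 0.0161 to 0.0648 UMIs per 10000 over the mice. Of 4 microvillar genes only Coch reached the minimum (0.362 in Dorsal, 0.270 in Ventral). Haemoglobin transcripts varied between mice rather than between clusters, with sums of 0.118 to 1.06 in Dorsal and 0.0775 to 0.927 in Ventral neurons. The 4 mature neuron markers Omp, Adcy3, Cnga2 and Gng13 together reached 169.3 to 179.1 UMIs per 10000 in Dorsal and 192.2 to 198.1 in Ventral neurons, so these ranges did not overlap. Dorsal neurons were also a little shallower in every mouse, with a median of 5229, 4202, 5972 and 3645 UMIs against 5564, 4279, 6629 and 4009, and had a lower median mitochondrial share (0.822% to 1.22% against 1.07% to 1.55%). The part of these in the results below was not tested. The genes that name the neighbouring clusters were low but not absent, with Dlg2 at 1.09, Calb2 at 0.871, Cd55 at 0.687 and Cd36 at 0.00786 UMIs per 10000 in Dorsal neurons.

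Within the dorsal side, Nqo1 was not highest in the plain cluster. Its mean level was 34.1 UMIs per 10000 in the Calb2-rich dorsal cluster, 28.8 in the Cd55-rich, 25.2 in the plain, 20.6 in the Cd36-rich and 13.6 in the Dlg2-rich one. Acsm4 was at 6.37, 2.81, 5.13, 4.56 and 4.54 in the same order, so the Cd55-rich cluster was high in Nqo1 and lowest in Acsm4. All ventral clusters lay between 0.28 and 1.70 for Nqo1. Acsm4 was not confined to neurons: sustentacular cells, the supporting cells of the epithelium, had 3.65 UMIs per 10000.

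**Figure D1:**
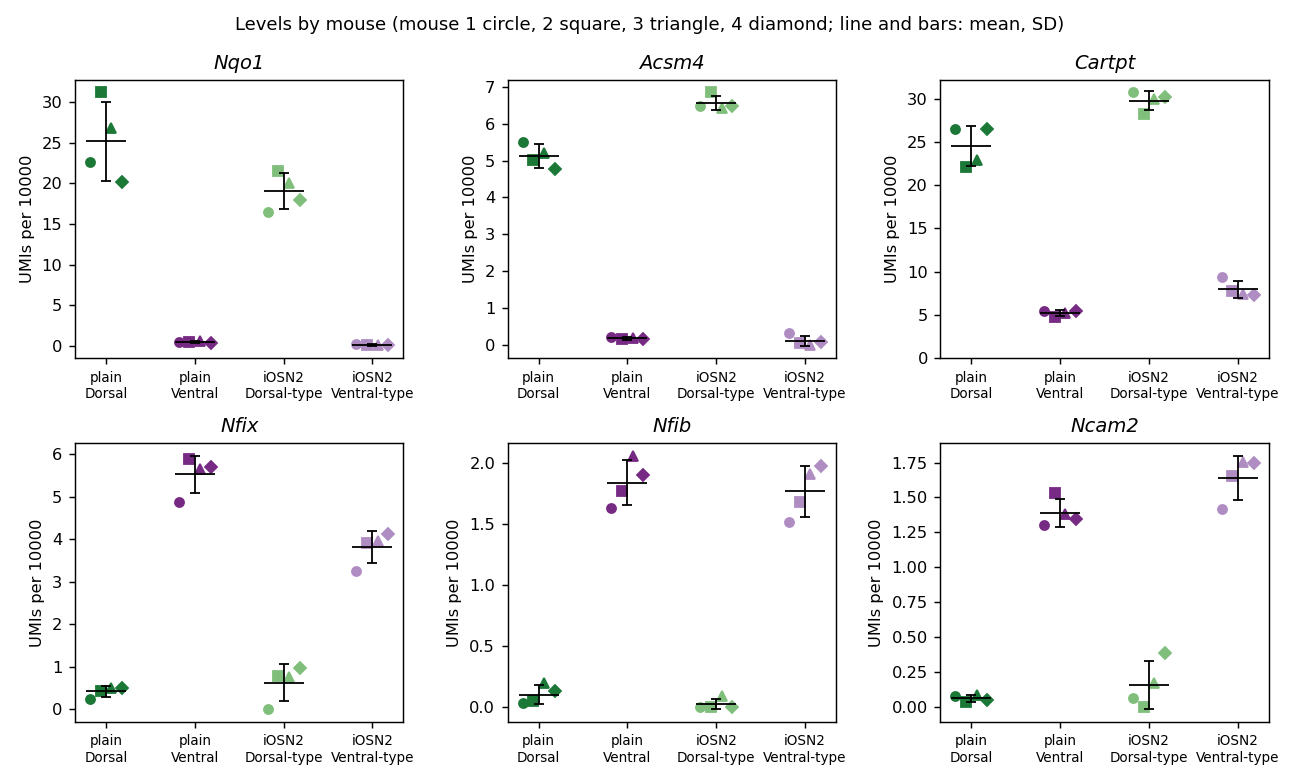
Levels of 6 genes, in UMIs per 10000 UMIs on the vertical axes, in plain Dorsal and plain Ventral mature neurons and in iOSN2 (late immature) neurons that carry a Dorsal-type or a Ventral-type receptor; each mark is a mouse, the line is the mean and the bars are the SD (n = 4). Nqo1, Acsm4 and Cartpt are high in both dorsal groups, and Nfix, Nfib and Ncam2 in both ventral groups, with no overlap between the mice of a dorsal and a ventral group of the same stage.

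The genes other than receptors that set Dorsal neurons apart from Ventral neurons are given as a description only, without a test, because the clusters were made from these same genes in these same cells. Genes with at least 0.1 UMIs per 10000 in either cluster were compared, and a gene counted as apart when its mean log2 ratio over mice reached 1 in size with the same sign in 4 of 4 mice. Of 8574 genes measured, 53 were at least 2-fold higher in Dorsal (0.618%) and 139 at least 2-fold lower (1.62%). Past 4-fold the counts were 15 higher and 48 lower. With 0.1 UMIs per 10000 added in place of 0.01 they were 26 higher and 60 lower past 2-fold. The median log2 ratio of all measured genes was -0.04, and 6413 genes (74.8%) lay within 1.2-fold.

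The 12 genes with the largest ratios on the Dorsal side were taken from those with at least 0.5 UMIs per 10000 in either cluster, which leaves out rarer transcripts, some of them with larger ratios. Nqo1 and Acsm4 were followed by genes of various known roles. Papss2, which makes the sulfate donor of the cell, had mean levels of 0.647 in Dorsal and 0.0381 in Ventral neurons (13.9-fold). Socs2, a suppressor of cytokine signalling, had 1.34 and 0.167 (7.52-fold). Nob1, a ribosome assembly factor, stood at 0.859, 0.793, 0.882 and 0.749 in Dorsal and at 0.136, 0.112, 0.134 and 0.138 in Ventral neurons (5.94-fold). The Nob1 gene ends 9280 bases upstream of Nqo1 on the same strand. Papss2 varied within the dorsal side, with means of 0.598, 0.254 and 0.0976 in the Dlg2-rich, Cd36-rich and Cd55-rich dorsal clusters.

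Cartpt, which encodes the CART neuropeptide precursor, was among the higher Dorsal levels at 26.5, 22.1, 22.9 and 26.4 UMIs per 10000, against 5.45, 4.82, 5.23 and 5.49 in Ventral neurons (4.65-fold). It was therefore far from absent in plain Ventral neurons, in contrast to Nqo1. In the Cd55-rich ventral cluster Cartpt averaged 21.7, close to the plain Dorsal levels, so it was not confined to the dorsal side. It averaged 33.9, 24.0 and 22.7 in the Cd55-rich, Cd36-rich and Dlg2-rich dorsal clusters. Ppa1, an inorganic pyrophosphatase, had mean levels of 10.1 in Dorsal and 3.08 in Ventral neurons (3.29-fold). The small GTPase gene Rnd2 had 1.06 and 0.336 (3.10-fold). Serinc2 was 2.94-fold higher, the noncoding 2810001G20Rik 2.79-fold and D930020B18Rik 2.71-fold. Robo2 had the smallest ratio of these 12 genes, at 1.65, 2.15, 2.02 and 2.04 in Dorsal and 0.679, 0.855, 0.752 and 0.751 in Ventral neurons (2.56-fold).

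On the other side stood the genes with lower levels in Dorsal neurons. Pdlim1, a cytoskeletal adaptor, had 0.0226 UMIs per 10000 in Dorsal and 2.55 in Ventral neurons (83.2-fold lower). Mdga2, which encodes a synaptic adhesion regulator, gave 1 UMI in all Dorsal and 1244 in all Ventral neurons, a ratio of 391.3 between Ventral and Dorsal with a 95% counting interval of 70.1 to 15470. The noncoding C130074G19Rik gave 2 and 1370 UMIs, a ratio of 215.5 (59.5 to 1781). These intervals cover counting error only.

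Ncam2 stood at 0.0729, 0.0296, 0.0861 and 0.0456 in Dorsal and at 1.30, 1.53, 1.38 and 1.35 in Ventral neurons (21.6-fold lower). Nfix stood at 0.235, 0.430, 0.506 and 0.502 in Dorsal and at 4.88, 5.88, 5.64 and 5.69 in Ventral neurons (13.4-fold lower). Nfib stood at 0.0324, 0.0445, 0.194 and 0.124 against 1.63, 1.77, 2.06 and 1.90 (20.7-fold lower). Nfia was 7.14-fold lower (0.0657 and 0.480), whereas the fourth member of the nuclear factor I family, Nfic, had mean levels of 0.511 and 0.437 and lay within 1.2-fold. Nrp2, a receptor for semaphorins, stood at 0.158, 0.0667, 0.124 and 0.137 in Dorsal and at 1.06, 1.10, 1.29 and 1.16 in Ventral neurons (9.19-fold lower).

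The other lowered genes chosen by the same minimum were Aldh3b1, an aldehyde dehydrogenase (28.8-fold), Ifi27, an interferon-inducible gene (18.7-fold), Cidea, a lipid droplet protein (17.8-fold), and Tmem132a (9.25-fold). Cidea was not low throughout the dorsal side, with means of 0.742, 0.0134 and 0 in the Dlg2-rich, Cd55-rich and Cd36-rich dorsal clusters. Avp, which encodes vasopressin, had a mean of 0.00405 in Dorsal and 0.512 ± 0.506 in Ventral neurons. Its Ventral level differed widely between mice, at 1.21, 0.0522, 0.248 and 0.537, and its 25.3-fold mean ratio rests on that spread.

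Of the 12 listed zone genes 9 were measured, of which Nqo1, Acsm4 and Robo2 were at least 2-fold higher and Nfix, Nfia, Nfib, Ncam2 and Nrp2 at least 2-fold lower. That list was made from genes known to differ along this axis. Of 22 measured axon guidance and adhesion genes only Robo2 (higher) and Nrp2 (lower) passed 2-fold, as did 0.618% and 1.62% of all measured genes. Of the 22 genes, 8 were higher and 10 lower in all mice, as were 15.2% and 24.7% of all measured genes. Among these, Epha5, an ephrin receptor, stood at 3.53, 3.75, 4.56 and 4.59 in Dorsal neurons and at 6.04, 5.81, 6.77 and 6.67 in Ventral neurons.

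Nqo1 is a textbook target of Nrf2, the oxidative stress regulator. The Nrf2 list holds such targets together with Nfe2l2, the gene of Nrf2 itself, and Keap1, its inhibitor. Of 14 measured genes of this list, Nqo1 was the only one past 2-fold. The others were mixed in direction, with a list median of -0.02 on the log2 scale. Of the 14 genes, 6 were higher and 5 lower in all mice (15.2% and 24.7% of all measured genes). Txn1 (thioredoxin) had mean levels of 3.94 in Dorsal and 2.66 in Ventral neurons and Gclc 0.322 and 0.215, whereas Prdx1 had 2.73 and 5.36 and Hmox1 0.145 and 0.280. In the fatty acid and acyl-CoA list, Acsm4 and Acss2 (1.70 and 0.681, 2.48-fold) passed 2-fold, both higher, among 7 measured genes, as did 0.618% of all measured genes in that direction.

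None of 18 odorant transduction genes passed 2-fold, and 11 were lower and 4 higher in all mice (24.7% and 15.2% of all measured genes), with a median log2 ratio of -0.19 against -0.04 for all genes. Omp, the olfactory marker protein, had mean levels of 66.5 in Dorsal and 78.5 in Ventral neurons and Stoml3, a channel-associated membrane protein, 80.2 and 94.4. The G protein subunit gene Gnal stood level at 29.0 and 28.9, and the chloride transporter gene Slc12a2 was higher at 4.25 and 3.02. Of 9 measured activity-related genes only Nr4a1 (0.0891 and 0.25) passed 2-fold, as lower. Of all measured genes 0.618% were past 2-fold higher and 1.62% lower. In all mice 5 of the 9 were higher and 4 lower (15.2% and 24.7% of all measured genes), with a list median log2 ratio of 0.44. Fos had 1.51 and 0.872, S100a5, a calcium-binding protein whose level follows sensory input, had 164.8 and 207.9, and Kirrel2, an adhesion molecule of axon sorting, had 4.12 and 7.58.

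In the list of subset markers Ptn, a growth factor (4.86 and 1.96), and Cartpt were at least 2-fold higher and Cidea lower, among 8 measured, beside 0.618% and 1.62% of all measured genes. None of 10 measured regulators of receptor choice and neuron identity, Ebf1, Ebf2, Lhx2 and Atf5 among them, passed 2-fold. Their median log2 ratio was -0.10, and 3 were higher and 7 lower in all mice (15.2% and 24.7% of all measured genes).

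Receptor identity had not been used to form the clusters and could be tested. The question was which receptors the Dorsal neurons carry, and how sharply receptors divide between Dorsal and Ventral. The 1482 Dorsal neurons expressed 263 different receptors: 65 of class I, 191 of class II and 7 others such as trace amine-associated receptors. The 10 most frequent receptors accounted for 310 neurons (20.9%), the median receptor had 3 Dorsal neurons, and 62 receptors had only 1.

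Of the 263 receptors with a Dorsal neuron, 163 also had neurons in plain Ventral. Of the 353 receptors with at least 10 clustered neurons, 245 had no neuron in the Dorsal cluster, 18 had fewer than 10% there, and 11 had at least 90%. Between these ends, 27 had a Dorsal share of 10 to 33%, 22 of 33 to 67% and 30 of 67 to 90%. The neurons outside plain Dorsal also include those placed in the other dorsal clusters.

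**Figure D2:**
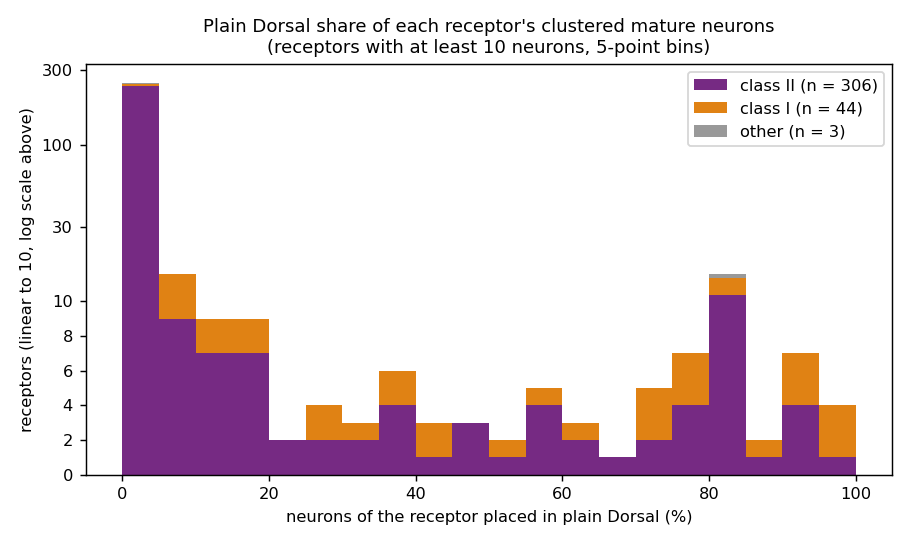
Share of each receptor's clustered mature neurons that fell in the plain Dorsal cluster (horizontal axis, percent), for the 353 receptors with at least 10 neurons; the vertical axis counts receptors, linear to 10 and logarithmic above, with class II, class I and other receptors stacked. Most receptors sit at 0%, and a second, smaller group, in which class I is frequent, lies above 67%.

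The receptor with most Dorsal neurons was Olfr1361, a class II gene on chromosome 13, with 5, 10, 13 and 18 neurons in mice 1 to 4. These 46 were 88.5% of all its clustered neurons (95% Wilson interval 77.0 to 94.6, which covers counting error only and not the spread between mice), and the other 6 were in plain Ventral. Its share of the cluster's neurons was higher in Dorsal than in Ventral by 4.45 ± 0.34 (SE) on the log2 scale, with an adjusted p of 1.353e-20 by edgeR's quasi-likelihood test with Benjamini-Hochberg adjustment. Olfr1176, class II on chromosome 2, followed with 10, 8, 7 and 12 neurons, 75.5% of its total, and 9 of its other neurons were in the Calb2-rich dorsal cluster.

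Olfr689, Olfr655, Olfr586, Olfr661, Olfr552 and Olfr672, all class I receptors of chromosome 7, had 31, 30, 29, 29, 28 and 27 Dorsal neurons. Olfr689 is the clearest case, with 31 of its 32 clustered neurons in the cluster (96.9%) and none in Ventral. Numbers per mouse were uneven for some of them: Olfr661 gave 10, 8, 10 and 1 neurons and Olfr655 gave 12, 13, 3 and 2. The remaining class II receptors of the first 10 were Olfr1406 on chromosome 1 with 27 of 35 neurons and Olfr446 on chromosome 6 with 26 of 31. Olfr591, a class I receptor, was divided between plain Dorsal (23 of 41 neurons) and the Cd55-rich dorsal cluster (16).

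Of 207 receptors with at least 10 neurons in plain Dorsal and plain Ventral together, edgeR's quasi-likelihood test called 50 with a higher share in Dorsal (24.2%) and 110 with a lower share (53.1%). By class, the 50 comprised 17 class I, 32 class II and 1 other receptor, and the 110 comprised 1 class I, 108 class II and 1 other. All 18 class I receptors tested were therefore called, whereas 47 class II receptors were not. The other receptor called higher was Taar2, a trace amine-associated receptor, with 10 of its 12 neurons in the cluster (edgeR adjusted p = 0.004957), and the one called lower was Gm13723, with 0 Dorsal and 17 Ventral neurons (edgeR adjusted p = 0.01558). Olfr686 was the class I exception: it had 0 Dorsal, 15 Ventral and 9 neurons in the Calb2-rich ventral cluster, of 27 in all (log2 -4.37 ± 1.75, edgeR adjusted p = 0.01949). With 0 Dorsal neurons, the size of its log2 change depends on the prior count of the fit. Taar2, Gm13723 and Olfr686 were named after their values were seen. Without mouse 1, 39 of the 143 receptors still tested were called (23 higher and 16 lower), and without mouse 4, 95 of 136 were called. The balance of the calls moved with the setting: with at least 5 neurons 77 of 383 receptors were called higher and 70 lower, and with UMI sums of the receptor genes in place of neurons 42 and 151 of 207.

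Of neurons with a class I or class II receptor, class I made up 32.9% ± 4.98 in Dorsal and 1.31% ± 0.66 in plain Ventral (SD, n = 4). By mouse the share was 37.2%, 37.1%, 30.1% and 27.3% of these Dorsal neurons and 1.44%, 1.07%, 2.15% and 0.591% of Ventral neurons. No mouse of one cluster came near the other, and the mean difference was 31.6 percentage points, with an exact two-sided sign-flip permutation p of 0.125, the smallest that 4 mice can give. Seen from the receptors, 481 of 1050 clustered class I neurons (45.8%) were in plain Dorsal and 54 in plain Ventral, against 980 (11.7%) and 4516 of 8411 class II neurons.

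Among class II neurons alone, the chromosomes of the receptor genes were represented in different proportions in Dorsal and Ventral. Chromosome 9 receptors accounted for 19.95% ± 2.50 of the class II neurons in Dorsal and 4.88% ± 0.44 in Ventral (SD, n = 4), and chromosome 1 receptors for 11.1% ± 2.33 and 2.93% ± 0.44. In the other direction, class II receptors of chromosome 7 accounted for 7.39% and 15.7%, those of chromosome 19 for 1.82% and 6.67%, and those of chromosome 16 for 0.168% and 4.48%. Chromosome 2, the most frequent in both, had 29.2% ± 3.28 and 29.7% ± 2.03. Receptors of a chromosome lie in a few clusters, so these shares are not independent of the counts above and were not tested.

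The receptor transcript itself was about as abundant in both clusters. The assigned receptor averaged 100.5 ± 2.71 UMIs per 10000 in Dorsal and 96.6 ± 2.18 in Ventral neurons, a log2 ratio of 0.06 that was positive in 4 of 4 mice (exact sign-flip permutation p = 0.125). With the median over neurons in place of the mean, the levels were 82.96 and 84.15, so the direction turned (log2 ratio -0.02, exact permutation p = 0.375). In neurons with exactly 1 receptor detected the log2 ratio was 0.01. Every neuron had to pass the study's lower limit for a receptor call, so low levels were not represented.

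Further receptors in the same neuron were counted at a fixed depth. Neurons with more than 1 receptor above the study's limit had been removed before clustering. The further receptors counted here therefore lay below that limit at full depth. At 3000 UMIs per cell, 16.8% ± 3.74 of Dorsal and 21.9% ± 1.82 of Ventral neurons had a UMI of 2 or more receptors, with differences of -5.99, -1.92, -4.68 and -7.84 percentage points by mouse (mean -5.11, exact sign-flip permutation p = 0.125). At 5000 UMIs the shares were 23.7% and 33.7%, a difference of -9.96 percentage points (exact permutation p = 0.125), and without thinning they were 25.3% and 33.2%. The share at 3000 UMIs leaves out shallower cells, which were 30, 81, 24 and 112 Dorsal and 118, 295, 82 and 306 Ventral neurons in mice 1 to 4. At 5000 UMIs far fewer cells remained, with 252, 102, 204 and 46 Dorsal and 748, 401, 538 and 362 Ventral neurons. How far free receptor RNA contributes to such UMIs was not tested.

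Receptors were then sorted by where their mature neurons lay. A receptor was called Dorsal-type when at least 2 in 3 of its clustered neurons, of which there had to be 3 or more, were in plain Dorsal, and Ventral-type likewise for plain Ventral. There were 115 Dorsal-type receptors (29 class I, 84 class II and 2 others) and 281 Ventral-type receptors, none of class I. Dorsal-type receptors were carried by 1026 of the 1482 Dorsal neurons (69.2%), Ventral-type receptors by 21 (1.42%) and receptors of neither type by 435 (29.4%).

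A small number of neurons crossed these lines. The 99 Ventral neurons with a Dorsal-type receptor had Nqo1 at 11.4, 8.80, 9.17 and 4.66 UMIs per 10000 in the 4 mice, against 0.0816 in the 3643 Ventral neurons with a Ventral-type receptor and 26.3 ± 5.12 in the 1026 Dorsal neurons with a Dorsal-type receptor. Their Acsm4 was at 3.42 (0.0246 and 5.39 in those reference groups) and their Nfix at 0.866 (5.81 and 0.251). On these 3 genes their means lay between both reference groups, and their median depth was 3175 UMIs. The 21 Dorsal neurons with a Ventral-type receptor varied widely, with Nqo1 at 7.11, 27.8, 4.202 and 11.6 and Nfix at 2.97 ± 1.42. These values are a description of few cells and were not tested.

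Immature neurons gave a measure that the clustering had not used. The iOSN2 cells are late immature OSNs, and none of them was among the clustered cells. Of 1006 such cells, 899 had a single receptor above the study's limit, which was Dorsal-type in 70 (20, 8, 24 and 18 by mouse) and Ventral-type in 329 (72, 102, 59 and 96). The comparison addresses whether the genes that separate the mature clusters already differ, by receptor type, before full maturity. Of the 115 Dorsal-type receptors 29 were of class I and of the Ventral-type receptors none, so differences between the classes enter this comparison. Median depths were 8576, 6201, 9804 and 5539 UMIs in Dorsal-type and 8250, 6875, 9939 and 6024 in Ventral-type cells.

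Among 5746 genes, 67 were called higher in Dorsal-type iOSN2 cells (1.17%) and 89 lower (1.55%) by edgeR's quasi-likelihood test. Without mouse 1 the calls were 26 higher and 32 lower of 5919 genes tested, and DESeq2 called 25 higher and 25 lower. Nqo1 stood at 16.5, 21.5, 20.1 and 17.9 UMIs per 10000 in Dorsal-type and at 0.273, 0.0877, 0.0511 and 0.0346 in Ventral-type cells. The groups were far apart, and the log2 change was 7.38 ± 0.16 (SE, edgeR adjusted p = 7.233e-108). Acsm4 stood at 6.49, 6.85, 6.43 and 6.49 against 0.307, 0.0438, 0 and 0.0692 (log2 5.94 ± 0.22, edgeR adjusted p = 1.598e-67). Their means in these immature cells, 19.0 and 6.56, stand beside 25.2 and 5.13 in the mature Dorsal neurons.

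Ventral markers were low in the same Dorsal-type cells. Nfix stood at 0, 0.783, 0.746 and 0.969 in Dorsal-type and at 3.26, 3.92, 3.95 and 4.12 in Ventral-type cells (log2 -2.72 ± 0.21, edgeR adjusted p = 3.058e-25), although DESeq2 gave an adjusted p of 0.1044. Ncam2 stood at 0.0590, 0, 0.166 and 0.387 against 1.42, 1.65, 1.75 and 1.75 (log2 -3.32 ± 0.34, edgeR adjusted p = 2.92e-16). The highest Dorsal-type mouse was below the lowest Ventral-type mouse for both genes.

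Among the called genes with 50 UMIs or more, those raised most in Dorsal-type iOSN2 cells included Nob1 (log2 2.83), Bmp3, a growth factor of the BMP family (2.55), 4932412D23Rik (2.50), Tctex1d1 (2.19), Hs3st5, a heparan sulfate sulfotransferase (2.10), and the noncoding 2810001G20Rik (2.10). Cartpt was at 29.8 and 7.99 (log2 1.91, edgeR adjusted p = 4.142e-59), and Robo2 rose by a log2 of 1.05 ± 0.21. Tctex1d1 was not called without mouse 1 (edgeR adjusted p = 0.1117).

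The genes lowered most, by the same minimum, were seen in a few Dorsal-type UMIs at most. Hectd2os gave 0 UMIs in Dorsal-type and 127 in Ventral-type cells, which makes it at least 9.82-fold lower when 3 UMIs are allowed over the group, and C130074G19Rik gave 0 and 98 (at least 7.58-fold lower). Hectd2os overlaps Hectd2. Nfib gave 2 and 430 UMIs, a ratio of 49.9 between Ventral-type and Dorsal-type cells with a counting interval of 13.7 to 413. Pdlim1 gave 2 and 360 UMIs, a ratio of 41.7 (11.5 to 346). Aldh3b1 gave 1 and 122 UMIs, a ratio of 28.3 (4.98 to 1126). Etv4, an Ets transcription factor, gave 2 and 121 UMIs, a ratio of 14.0 (3.80 to 117.2). Cidea fell by 4.01 on the log2 scale, Nrp2 by 2.88 and Nfia by 2.08, each past the threshold by edgeR. DESeq2 did not call Nfia.

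Avp again varied between mice, with 4.16, 6.28, 0.204 and 0.277 in Ventral-type and 0.0590, 0, 0 and 0.387 in Dorsal-type cells. These groups overlapped, and DESeq2 gave an adjusted p of 0.2657 where edgeR's call passed the threshold (log2 -4.40).

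Of the 53 genes at least 2-fold higher in mature Dorsal neurons, 27 had counts enough to be tested in iOSN2 cells, and edgeR called 19 higher, 0 lower and 8 not (26 higher and 0 lower at an unadjusted p under 0.05, and 15 and 0 by DESeq2). Of the 139 genes at least 2-fold lower, 65 were tested, of which 33 were called lower, 0 higher and 32 not (48 lower and 0 higher at an unadjusted p under 0.05, and 16 and 0 by DESeq2). Over all 5746 genes tested, edgeR called 1.17% higher and 1.55% lower. A gene could enter the test through its high group alone, so these are counts and no support in themselves. Conversely, 19 of the 67 genes called higher and 33 of the 89 called lower were also past 2-fold in mature neurons, whereas 9 and 12 lay within 1.2-fold there.

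**Figure D3:**
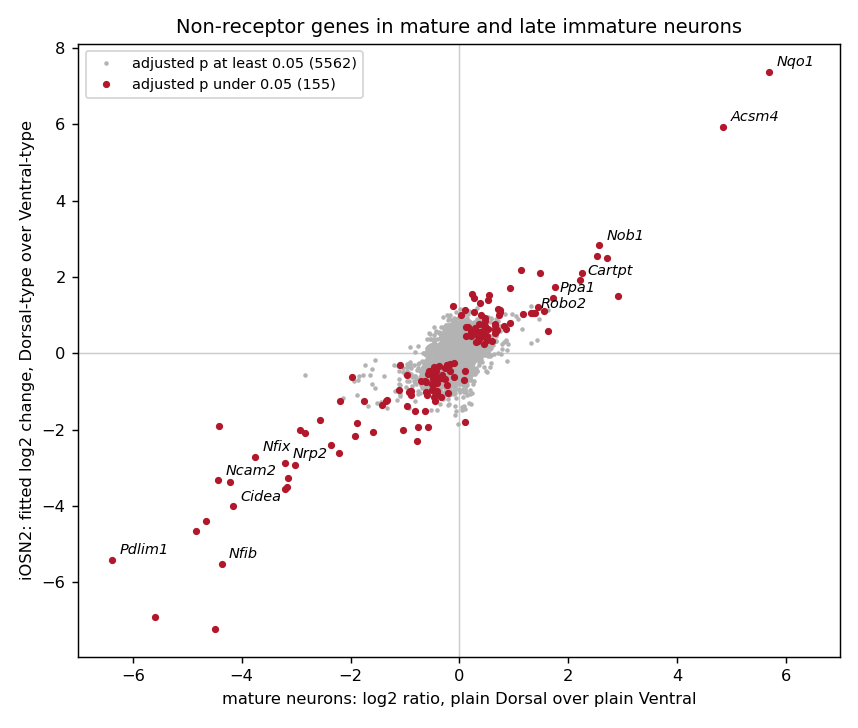
Log2 ratio between plain Dorsal and plain Ventral mature neurons (horizontal axis) and fitted log2 change between iOSN2 cells with Dorsal-type and Ventral-type receptors (vertical axis) for non-receptor genes measured in both; grey dots are 5562 genes with an adjusted p of at least 0.05 in iOSN2 cells and red dots 155 genes under it (edgeR). Nqo1 and Acsm4 lie alone at the upper right and Pdlim1, Nfib, Cidea, Ncam2 and Nfix at the lower left; the height of genes with 0 to 3 UMIs in a group depends on the prior count of the fit.

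By list, 9 zone genes were tested in iOSN2 cells. Of these, edgeR called the same 3 higher and the same 5 lower as were past 2-fold in mature neurons. DESeq2 called the same 3 higher but only 3 lower (Nfib, Ncam2 and Nrp2), without Nfix and Nfia. Of all genes tested in iOSN2 cells, 1.17% were called higher and 1.55% lower. Of 21 axon guidance and adhesion genes, Robo2 and the protocadherin gene Pcdh19 were called higher (edgeR adjusted p = 0.04418 for Pcdh19) and Nrp2, Kirrel2, Epha5 and Sema7a lower. Kirrel2 fell by 1.10, Epha5 by 0.72 and Sema7a by 0.98 on the log2 scale. The activity list gave 0 higher (1 at an unadjusted p under 0.05, and 0 by DESeq2) and 3 lower of 7 by edgeR, which were S100a5 (66.5 and 143 UMIs per 10000), Pcp4l1 and Kirrel2. Of 17 transduction genes Slc12a2 was called higher (log2 0.94) and Gng13 lower (log2 -0.24). Of 10 genes of the Nrf2 list Nqo1 was called higher and Prdx1 lower (log2 -0.57). Of 5 fatty acid genes Acsm4 and Acss2 (log2 1.07) were called higher. Of 6 subset markers Calb2 (log2 0.68) and Cartpt were called higher and Cidea lower. Of 9 regulators edgeR and DESeq2 both called 0, and 0 had an unadjusted p under 0.05 by either tool. In the other lists DESeq2 called the same subset markers, but not Pcdh19, Sema7a, Pcp4l1, Gng13, Prdx1 or Acss2.

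Within the Dorsal cluster itself, neurons with a class I receptor (481) were compared with neurons with a class II receptor (980). The class comes from the position of the receptor gene, which the clustering had not used, but neurons rich in Calb2, Cd36, Cd55 or Dlg2 had been placed in other clusters, which bears on those genes here. Class I neurons had 145 genes called higher (1.85%) and 104 called lower (1.33%) among 7847, by edgeR's quasi-likelihood test with mouse as a block. Without the replicate block 80 genes were called, all of them among the 249. Without mouse 3 the count was 113 and without mouse 4 it was 148, and DESeq2 called 68.

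Both dorsal markers were higher in class I neurons, by little. Nqo1 stood at 28.2, 38.9, 33.0 and 24.2 UMIs per 10000 with a class I receptor and at 20, 26.8, 24.4 and 18.7 in class II neurons. The class I value was the higher one within each mouse although the ranges overlap, and the log2 change was 0.50 ± 0.03 (SE, edgeR adjusted p = 1.308e-17). Acsm4 had means of 5.62 and 4.83 (log2 0.23 ± 0.06, edgeR adjusted p = 0.01026), a call that was lost without mouse 2, 3 or 4, in neurons with exactly 1 receptor, by DESeq2 and without the block (adjusted p of 0.0631 to 0.3636). Nfix stood at 0.0538, 0.190, 0.0357 and 0.0911 with a class I receptor and at 0.335, 0.592, 0.719 and 0.675 with a class II receptor (log2 -2.61 ± 0.26, edgeR adjusted p = 1.969e-11). Most of the little Nfix seen in the Dorsal cluster was therefore in its class II neurons.

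Tafa4, which encodes a secreted chemokine-like protein, gave 189 UMIs with a class I receptor and 2 with a class II receptor, a ratio of 177.8 with a counting interval of 48.5 to 1479 (edgeR adjusted p = 8.958e-23). S100z, another calcium-binding gene of the S100 family, was higher by 3.30, Tmem52 by 2.80, Bmp3 by 2.55, the G protein subunit gene Gng3 by 2.47, Tppp3, a tubulin-binding protein, by 2.45 and Gm40709 by 2.26 on the log2 scale. Gng3 overlaps Bscl2. Cd55, a complement regulator, stood at 1.49, 1.80, 1.61 and 1.21 with a class I receptor and at 0.239, 0.265, 0.289 and 0.222 with a class II receptor (log2 2.61 ± 0.14, edgeR adjusted p = 8.958e-23). Cd55 was thus higher in class I than in class II neurons of the cluster, even after the most Cd55-rich neurons had been set apart. Its class I levels were far below the mean of 14.75 in the Cd55-rich dorsal cluster.

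Class II neurons were higher in an adhesion gene, a transcription factor and a guidance receptor. Pcdh7, a protocadherin, stood at 0.0861, 0.0758, 0.0357 and 0.0455 with a class I receptor and at 0.662, 0.693, 0.766 and 0.841 with a class II receptor (log2 -3.42 ± 0.25, edgeR adjusted p = 1.428e-16). Several predicted genes overlap Pcdh7, and how their reads were divided was not tested. Bcl11b, a zinc finger transcription factor known to favour class II receptor choice, had 0.118 and 0.839 (log2 -2.86 ± 0.23, edgeR adjusted p = 3.357e-15). Nrp1, the other neuropilin, had 0.119 and 0.503 (log2 -1.95). Gm42912 fell by 1.92, the metalloprotease gene Adam28 by 1.61 and the tubulin gene Tuba4a by 1.32 on the log2 scale. Magee1 (log2 -1.30, edgeR adjusted p = 0.04179) lost its call whichever mouse was left out (edgeR adjusted p of 0.06977 to 0.2265).

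**Figure D4:**
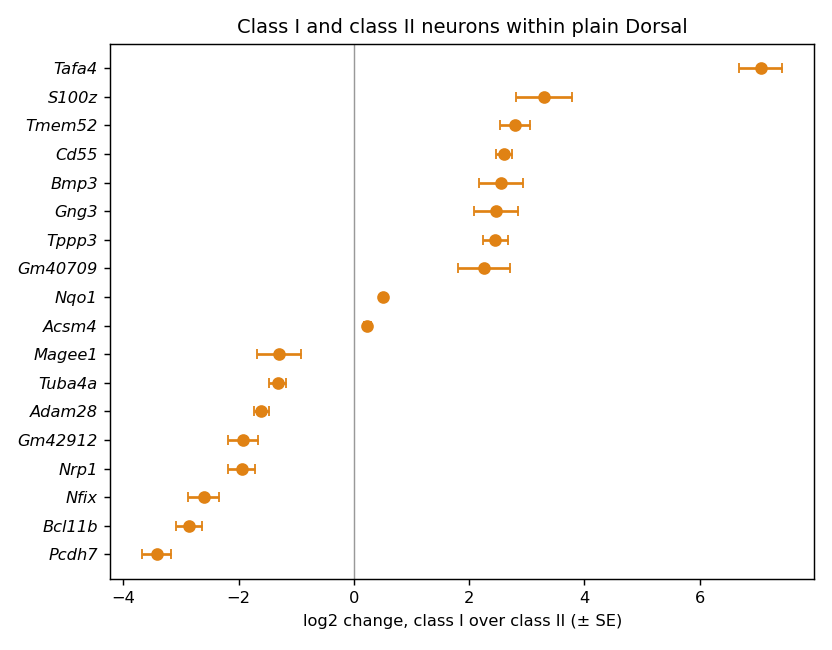
Log2 change between class I and class II neurons of the plain Dorsal cluster (horizontal axis; points are edgeR estimates over 4 mice, bars the SE) for the 8 called genes with the largest change in each direction and for Nqo1 and Acsm4. Tafa4, S100z, Tmem52 and Cd55 lie on the class I side and Pcdh7, Bcl11b, Nfix and Nrp1 on the class II side; the value of Tafa4, with 2 UMIs in class II, depends on the prior count of the fit.

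By list, edgeR called 9 of 18 transduction genes lower and 0 higher in class I neurons, with a median log2 change of -0.16 against 0.00 for all genes. Of all 7847 genes tested, 1.85% were called higher and 1.33% lower. How far the levels of the listed genes bear on the number called was not tested. At an unadjusted p under 0.05 there were 11 lower and 2 higher, and DESeq2 called 2 lower (Pde4a and Stoml3) and 0 higher. Omp was at 62.0 with a class I receptor and 68.9 with a class II receptor and Stoml3 at 71.4 and 85.3, and Gnal, Adcy3, Cnga4, Ano2, Ric8b, Pde1c and Pde4a were the others called. In the activity list of 8 tested, the immediate early genes Fos (2.25 and 1.12), Fosb, Junb and Egr1 were called higher by edgeR, and the activity-dependent S100a5 (153.8 and 169.7) and Pcp4l1 (10.1 and 12.8) were called lower. DESeq2 called Fos and Junb higher and Pcp4l1 lower, and did not call Fosb, Egr1 or S100a5.

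The zone list gave Nqo1, Acsm4 and Robo2 higher and Nfix lower of 7 tested, and the Nrf2 list Nqo1 and Txn1 higher of 14. The fatty acid list gave Acsm4, Acss2 and Acsl6 higher of 6. The axon guidance and adhesion list gave Robo2 higher and Nrp1, Pcdh7 and Pcdh17 lower of 22. Among 7 subset markers Cd55 and Tppp3 were called higher and Dlg2 and Adam28 lower, and of 10 regulators only Ldb1, a cofactor of Lhx2, was called, as lower. DESeq2 called the same genes of the Nrf2 and subset marker lists, but only Nqo1 and Nfix of the zone list, Acss2 of the fatty acid list and Nrp1 and Pcdh7 of the axon guidance list, and 0 regulators (1 at an unadjusted p under 0.05). Of the 53 genes at least 2-fold higher in Dorsal than in Ventral neurons, 50 were tested, and 21 were called higher and 1 lower in class I neurons. Of the 139 at least 2-fold lower, 45 were tested, and 4 were called lower and 3 higher. Among all genes 1.85% were called higher and 1.33% lower. Class I made up 32.9% of Dorsal and 1.31% of Ventral neurons with a class I or class II receptor. A gene high in class I neurons could thereby enter the 2-fold higher list, so these are counts and no support in themselves.

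Receptor populations within the cluster differed further. The 11 receptors with at least 3 Dorsal neurons in each mouse together had 313 neurons, and 132 of 1151 genes tested (11.5%) differed among them by edgeR's quasi-likelihood F test with mouse as a block. These populations include 6 class I and 5 class II receptors, so differences between the classes enter these counts. Other settings called fewer genes, with 76 to 91 without a mouse and 39 of 723 tested in neurons with exactly 1 receptor. The 8 genes with the largest F were Pcp4l1 (F = 40.4, edgeR adjusted p = 6.459e-25), S100a5 (F = 29.3, edgeR adjusted p = 1.348e-20), Mslnl (22.8), Cd55 (15.6), Stmn4 (14.9), Ptn (14.0), Kirrel2 (13.6) and Calb2 (13.0).

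S100a5 ran from 38.8 UMIs per 10000 in Olfr672 neurons and 45.0 in Olfr1176 neurons to 223 in Olfr30 and 271.8 in Olfr1361 neurons. Olfr672, at the lower end, is of class I and Olfr1176 of class II. Pcp4l1 was highest in Olfr1406 (24.0) and Olfr30 (22.7) neurons and lowest in Olfr672 neurons (1.41). Stmn4, a microtubule regulator, reached 18.7 in Olfr1361 neurons and Mslnl 10.2 in Olfr30 neurons. Cd55 reached 4.43 in Olfr689 and 3.37 in Olfr591 neurons, both of class I, and Calb2, a calcium-binding protein, 4.31 in Olfr1176 neurons.

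Nqo1 ran from 14.2 in Olfr30 and 19.7 in Olfr1406 neurons to 43.0 in Olfr672 and 46.1 in Olfr1176 neurons (F = 12.3, edgeR adjusted p = 9.244e-11). Acsm4, with fewer UMIs, had means between 4.31 and 6.08 and was not called (F = 0.792, edgeR adjusted p = 0.8724). Whether the spread of Nqo1 and Acsm4 differed was not tested. Cartpt also differed among populations (edgeR adjusted p = 0.01162).

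**Figure D5:**
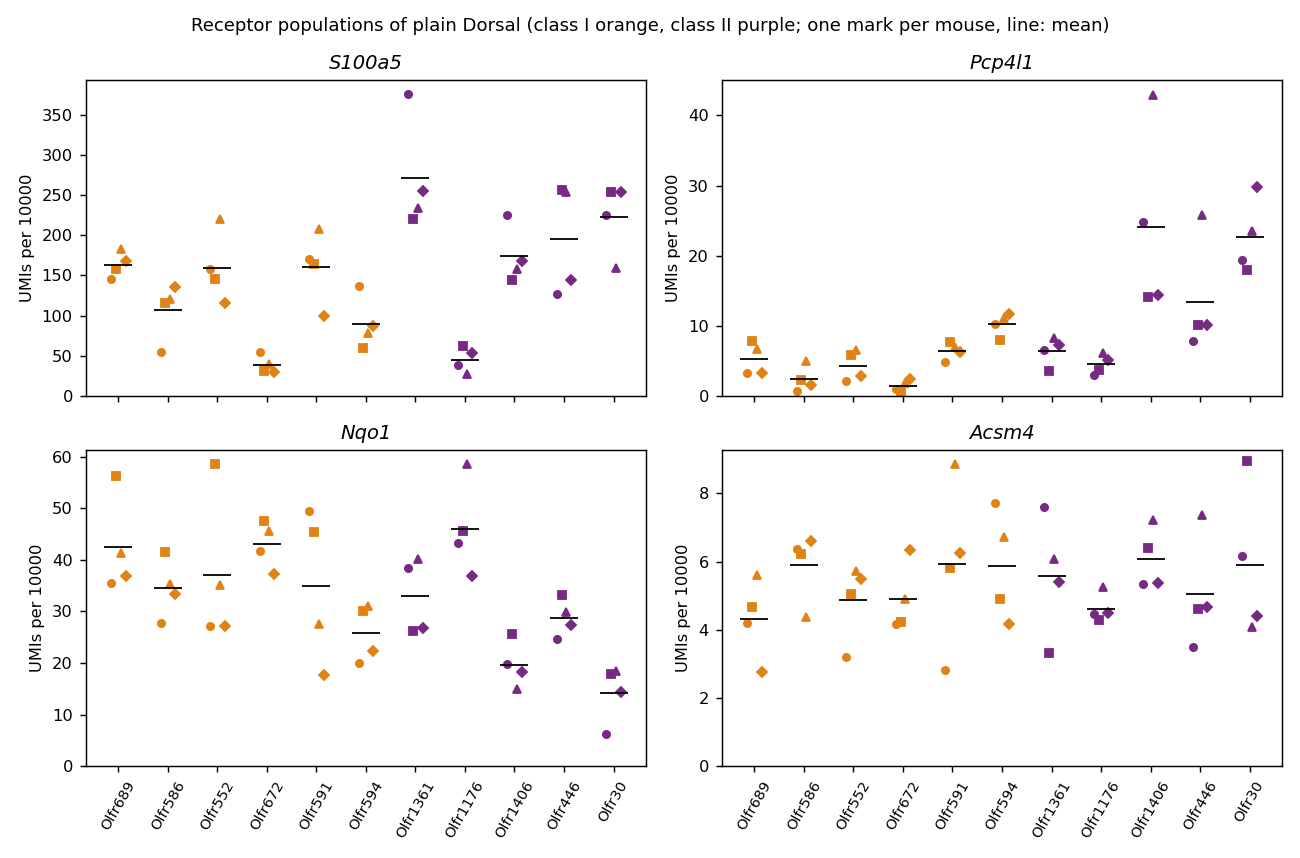
Levels of S100a5, Pcp4l1, Nqo1 and Acsm4, in UMIs per 10000 UMIs on the vertical axes, in the 11 receptor populations with at least 3 plain Dorsal neurons in every mouse; marks are mice, lines are means, and colours give the receptor class. S100a5 and Nqo1 differ several-fold between populations, and Acsm4 means lie between 4.31 and 6.08.

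Beside 11.5% of all genes tested, edgeR called 9 of 16 transduction genes, 3 of 4 activity genes and all 6 subset markers tested. It also called 2 of 3 zone genes, 3 of 6 axon guidance genes and 2 of 6 genes of the Nrf2 list. Among fatty acid genes it called 1 of 3, and among regulators 0 of 7. Of the regulators 1 had an unadjusted p under 0.05 by edgeR, and DESeq2 called 1, Ebf1.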

How the data were processed

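Per the labels, live nucleated cells of 4 mice were loaded on droplet chips, and per the submitters' processing notes reads were mapped with Cell Ranger 6.0.1 to GRCm38. The values used are the deposited UMI counts, unnormalized. The authors used an annotation with redrawn receptor gene ends. They removed whole clusters of blood cells, of immune cells and of cells high in mitochondrial transcripts, and also filtered cells on gene number and mitochondrial share. A receptor was called above 8.28 UMIs per 10000 (recomputed here from 3 median absolute deviations below the median). OSNs with several receptors above that limit were removed. Populations of at least 3 neurons were then clustered after regressing out mitochondrial share. No doublet caller was run here. The deposited cell table's text labels gave cells, clusters and receptor identities, its receptor calls recomputed here matched for 10518 of 10519 mature OSNs, and its further scores were not used.

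Here counts were summed per mouse and group and, without 1430 receptor genes, tested with edgeR 4.0.16 (quasi-likelihood, TMM, filterByExpr, Benjamini-Hochberg at 0.05; R 4.3.3). Receptor shares used numbers of neurons with no TMM. Mouse was a block because paired sums came from the same animal and library. With the block, the p-values set group differences within mice against how much those differences varied between the 4 mice. Estimates of that variation were partly shared between features. DESeq2 1.42.0 was an alternative. Single values used an exact sign-flip test in Python 3.11.15. Class I was the chromosome 7 receptor cluster at 102476579 to 105369355 (156 genes, GENCODE M21 positions, GRCm38). The tests were checked on simulated data. For the fits, the simulated counts had no differences between mice beyond depth and few changed receptors. That check therefore does not cover receptor shares that differ as widely as these.

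Genes named were the 12 largest ratios each way at 0.5 UMIs per 10000 or more, the 8 largest called changes each way with 50 UMIs or more, the 8 largest F values, the 10 commonest receptors and listed genes. Members and lists were chosen with earlier results of these data known. Counting intervals are at 95%. Alternatives were leaving out each mouse, neurons with exactly 1 receptor, cells without the 5% deepest, clusters made with receptor genes, another constant, minimum or weighting, other population sizes and type limits, no filter and no block.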

Additional observations from a re-analysis of the deposited data

Results flagged for a closer look

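Of 124 groups of 4 mice examined, 11 had a highest or lowest mouse whose gap to the nearest other mouse as a share of the group's range exceeded Dixon's 95% critical value. Chance marks about 1 in 20 groups. All values are UMIs per 10000. Nob1 in Ventral neurons of mouse 2 was at 0.1123, below 0.1341 to 0.1379 in the others. Acsm4 in Dorsal-type iOSN2 cells of mouse 2, which had 8 such cells, was at 6.851, above 6.428 to 6.489. Bmp3 in Ventral-type iOSN2 cells of mouse 3 was at 0.2723, and Tmem52 in class II Dorsal neurons of mouse 3 was at 0.1173. In the other 7 groups a single mouse had a few UMIs where most of the others had none. These were Mdga2 (mouse 3, 0.005378), C130074G19Rik (mouse 2, 0.01482) and Avp (mouse 1, 0.0162) in Dorsal neurons, Tafa4 in class II Dorsal neurons (mouse 1, 0.01365), and Nfib (mouse 3, 0.08294), Aldh3b1 (mouse 4, 0.09685) and Avp (mouse 4, 0.3874) in Dorsal-type iOSN2 cells.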

How the results depend on the processing

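The 192 genes past 2-fold became 86 with 0.1 UMIs per 10000 added and 455 with no minimum level, and ranged from 190 to 200 without a mouse. Receptors called numbered 88 of 136 tested in neurons with exactly 1 receptor detected and 78 of 79 with at least 20 neurons. The main setting called 160 of 207. Without a mouse they ranged from 39 of 143 (without mouse 1) to 123 of 159 (without mouse 2). Class I and class II genes numbered 68 of 7847 tested by DESeq2, and 113 to 208 without a mouse. Genes among populations numbered 39 of 723 tested in neurons with exactly 1 receptor and 71 of 1012 with at least 5 neurons per mouse. Without a mouse they numbered 76 to 91 (82, 77 and 76 without mouse 2, 3 and 4). Genes of iOSN2 cells numbered 57 of 3394 tested with exactly 1 receptor and 50 of 5746 by DESeq2. They numbered 39 of 4416 when a type needed at least 90% of a population. Without a mouse they numbered 58 to 147 (58 without mouse 1 and 83 without mouse 3). Without the replicate block, 80 class I and class II genes were called in place of 249, 135 iOSN2 genes in place of 156 and 198 receptors in place of 160. The receptor transcript level reversed to a log2 of -0.02153 with the median over neurons. The cause of these shifts was not tested, beyond fewer cells or features where a setting leaves them out. Of the other values of a comparison, 53 kept their direction and stayed within 1.5 times or the spread between mice; of 752 values of single genes, 708 did, 28 moved and 16 lost their call, mostly Acsm4 and Magee1 between classes. Nqo1 without a mouse stayed between 5.55 and 5.76 on the log2 scale between mature clusters. Genes near 1 UMI per mouse, and receptors with few neurons, are limited by depth.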
